A study of Mus musculus with 4 samples.

Results

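Cd209a MHC class II-high dendritic cells were chosen by their own transcripts among the CD45+ cells of EO771 mammary tumors. A cell was a member if it held at least 1 UMI (unique molecular identifier, 1 counted transcript) of Cd209a and at least 20 UMIs of H2-Ab1 per 10000 of its UMIs. It also had to have under 20 UMIs per 10000 of C1qa, C1qb and C1qc together, under 300 per 10000 of S100a8 and S100a9 together, at most 1 UMI of Fscn1, and none of Xcr1, Clec9a, Cd79a, Cd3d, Cd3e or Cd3g. In all, 322 of the 28429 cells that the authors kept met this rule. Since the rule chose the cells by these levels, the levels of the rule's genes and the comparisons of levels between the members and other cells are descriptions and were not tested. Tests were run only between the genotypes, in the members and as the difference of the genotype effect between the members and another population.

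EO771 is a mouse mammary carcinoma line, and its cells were implanted into the mammary fat pad of female mice of the C57BL/6 background. Viable CD45+ cells of 4 tumors were captured on the 10x Chromium platform in 2 runs, each of which pooled 1 Csf1rfl/fl tumor and 1 Lyve1CreCsf1rfl/fl tumor told apart by hashtag antibodies. Mice of both genotypes carried the floxed allele of Csf1r, the receptor of the macrophage growth factor CSF1, and those of the Lyve1CreCsf1rfl/fl group also carried Cre driven by Lyve1, so Csf1r is deleted in cells that express or have expressed Lyve1, which include some macrophages. Each genotype had 2 tumors (n = 2), and numbers for tumors are given in the order Csf1rfl/fl run 1, Csf1rfl/fl run 2, Lyve1CreCsf1rfl/fl run 1 and Lyve1CreCsf1rfl/fl run 2.

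Dendritic cells take up antigen, load its peptides onto MHC class II molecules and present them to CD4 T cells. Conventional dendritic cells grow under FLT3 ligand and split into type 1 cells, which carry XCR1 and CLEC9A, and type 2 cells, which carry C-type lectins such as CD209a and CD301b and resemble monocyte-derived dendritic cells in much of what they express. MHC class II genes are switched on by the coactivator CIITA, which docks on factors bound to a short promoter module whose last element, the Y box, binds NF-Y.

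The Y box of the MHC class II promoters is shown here because of the levels of Ciita and the genes below it. Ciita and most of these genes were higher in the members than in all other kept cells together. The rule's minimum of H2-Ab1 favors this, and similar cells without Cd209a shared it. The summed level of H2-Aa, H2-Ab1, H2-Eb1 and Cd74 was 291 to 318 over the tumors in the members and 285 to 328 in those cells. It was 216 to 267 in type 1 cells and 39.0 to 61.2 in Ly6c2-high monocytes, in the units used for levels below. The 7 letters TGATTGG were searched on both strands in the RefSeq promoter windows of GRCm38.p6 (mm10), from 250 bases before to 50 bases after each start site. They were found in 7.82% of all 32851 windows and in 7 of the 8 MHC class II genes that had a window, from 45 to 102 bases before the start. They were not found for H2-DMa, nor in the windows of Cd209a, Mgl2, Flt3, Kmo and Cd209d, which says only that these letters were absent there. The windows below are 60 bases long, run 5′ to 3′ on the strand of the gene, and have the letters in capitals.
H2-Aa (chr17:34287854-34287913, minus strand, 50 bases before the start): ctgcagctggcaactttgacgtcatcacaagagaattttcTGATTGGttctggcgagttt
H2-Eb1 (chr17:34305766-34305825, plus strand, 61 bases before the start): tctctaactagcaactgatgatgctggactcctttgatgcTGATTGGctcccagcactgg
H2-DMb1 (chr17:34153088-34153147, plus strand, 63 bases before the start): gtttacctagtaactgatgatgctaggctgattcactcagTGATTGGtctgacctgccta
H2-Ob (chr17:34238806-34238865, plus strand, 59 bases before the start): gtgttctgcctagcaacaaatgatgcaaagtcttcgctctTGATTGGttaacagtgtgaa
H2-Oa (chr17:34092294-34092353, plus strand, 45 bases before the start): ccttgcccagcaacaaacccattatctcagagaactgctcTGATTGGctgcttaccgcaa

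The members numbered 45, 122, 101 and 54 cells in the 4 tumors, with a median of 6350 UMIs and 1977 genes per cell (range 1244 to 23446 UMIs). They made up 0.522% of the kept cells of the Csf1rfl/fl tumor of run 1 (95% exact binomial interval 0.381% to 0.698%) and 1.57% of that of run 2 (1.30% to 1.87%). In Lyve1CreCsf1rfl/fl tumors they made up 1.39% (1.14% to 1.69%) in run 1 and 1.13% (0.851% to 1.47%) in run 2. The Csf1rfl/fl tumor of run 1 stood below the other 3, and the 2 genotypes overlapped. The log2 share was 0.47 higher in Lyve1CreCsf1rfl/fl tumors, a difference that did not pass an exact two-sided permutation test (p = 1, n = 2 against 2, for which 0.333 is the smallest p possible). Within runs the difference was 1.42 in run 1 and -0.47 in run 2, so the runs went in opposite directions, and it was -0.32 without the Csf1rfl/fl tumor of run 1. The intervals cover counting error only. The kept cells lack 4 clusters that the authors removed as specific to the Lyve1CreCsf1rfl/fl tumor of run 2, so its denominator was reduced. The part of this in its share was not tested. Among kept cells outside the T, NK, B and neutrophil rules, the log2 share was 0.66 higher in Lyve1CreCsf1rfl/fl tumors (exact permutation test, p = 0.667). The runs again went in opposite directions, at 1.54 and -0.23.

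The limit on Cd209a had the most cells close to it. The number of Cd209a UMIs per member ranged from 1 to 27 with a median of 3, and 103 members held exactly 1, while 1743 cells met the rest of the rule with 0. H2-Ab1 ranged from 20.1 to 184 per 10000 (median 64.1), with 34 members between 20 and 30 and 41 cells just outside, between 10 and 20. Of the cells left out for a single condition, 7 had 1 UMI of Xcr1 or Clec9a, 9 had 1 of Cd79a and 26 had 1 of Cd3d, Cd3e or Cd3g. Scrublet, a caller of doublets run in each Chromium run, marked 20 members, and 5 members had a hashtag under 3 times the other. No member of 1 run shared its barcode sequence with a member of the other, and 1 shared it with another kept cell.

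**Figure D1:**
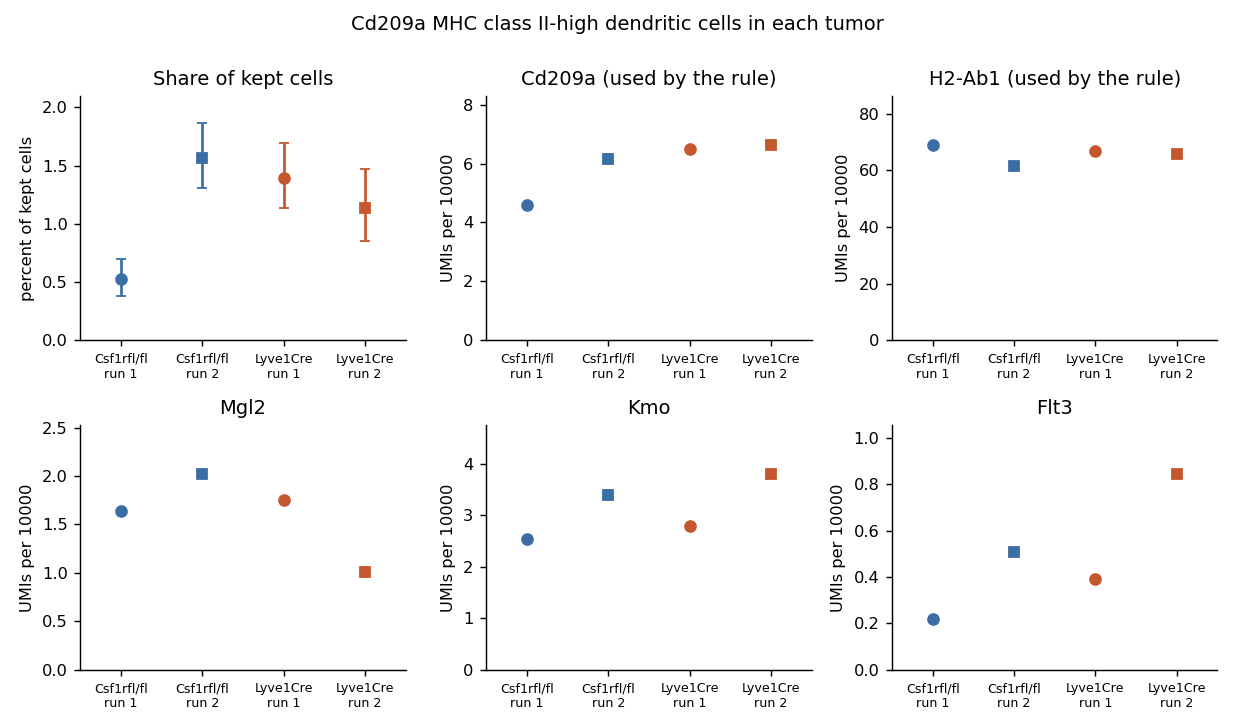
Share of kept cells that were members (percent, bars are 95% exact binomial intervals) and levels of the 5 marker genes in the members (UMIs per 10000) for each of the 4 tumors, Csf1rfl/fl in blue and Lyve1CreCsf1rfl/fl (marked Lyve1Cre) in red, circles for run 1 and squares for run 2. The share of 0.522% in the Csf1rfl/fl tumor of run 1 lies below the others. The genotypes overlap for every marker but Cd209a, by which the rule chose the cells.

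Levels of genes were measured as UMIs per 10000 UMIs of all members of a tumor. Cd209a, a C-type lectin of the DC-SIGN family and the gene that defines these cells (chr8:3743397-3748984, minus strand), was at 4.59, 6.14, 6.48 and 6.64. Mgl2, which encodes the galactose-binding lectin CD301b (chr11:70130329-70137550, plus strand), was at 1.63, 2.02, 1.75 and 1.01. Kmo, the kynurenine 3-monooxygenase of tryptophan breakdown (chr1:175620381-175662116, plus strand), was at 2.55, 3.39, 2.79 and 3.80. Both Csf1rfl/fl tumors were below both Lyve1CreCsf1rfl/fl tumors for Cd209a, by a margin smaller than the gap between the Csf1rfl/fl tumors themselves, and the genotypes overlapped for Mgl2 and Kmo. Flt3, the receptor of FLT3 ligand (chr5:147330741-147400489, minus strand), was low at 0.22, 0.51, 0.39 and 0.84, and H2-Ab1, the beta chain of I-A (chr17:34257689-34269419, plus strand), was at 69.1, 61.5, 66.9 and 65.9. Kmo and Flt3 were higher in run 2 than in run 1 in both genotypes. Within each run both genes were higher in the Lyve1CreCsf1rfl/fl tumor.

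These markers were spread unevenly over the cells. A UMI of Kmo was present in 259 of the 322 members, of Flt3 in 85, of Cd209d in 74 and of Mgl2 in 64. Mgl2 reached 73 UMIs in 1 cell, and its mean was 1.60 UMIs per 10000 over summed cells but 1.09 when each cell counted equally. Clec10a, the second CD301 gene, was present in 126 members. With each cell thinned to 2000 UMIs (2 members were shallower and left out), 42 of 320 members held Mgl2, and Clec10a was found in 38.1% of these and in 19.1% of the others, against 1.36% to 1.81% of T cells over the tumors.

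The genes that led the members included lectins and MHC class II genes beside genes of other kinds. The 15 genes with the largest ratio to all other kept cells, taken at the lowest of the 4 tumors with 0.05 UMIs per 10000 added and a level of at least 0.5 in every tumor, were Cd209a, Cd209d, Cdh1, Mgl2, Kmo, Cyp7b1, Ffar2, Fcor, Ctnnd2, Ciita, Vrk1, H2-DMb2, H2-DMb1, H2-Ab1 and Bex6. Cd209d, a neighbor of Cd209a on chromosome 8 that encodes a related lectin, was at 1.35 ± 0.41 UMIs per 10000 (mean ± SD, n = 4 tumors) against 0.04 elsewhere, and its ratio was 10.1 or more in every tumor. The list of MHC class II presentation had 11 of 12 compared genes higher than in all other kept cells in all 4 tumors and 1 lower, where 32.3% and 31.4% of 2532 genes were, which is a count on the contrast that the rule used. Cd209a and Cd209d belong to 1 family of similar sequence, and reads that match both can be split or lost in counting, so the level of Cd209d is uncertain. Plasmacytoid cells (Siglech, 483 cells) also held it, at 0.59 to 1.17 over the tumors, and had more Clec10a than the members, at 3.01 to 4.48. Cdh1, which encodes the adhesion molecule E-cadherin, was at 1.65 ± 0.19 against 0.11. Ffar2, a receptor of short-chain fatty acids, was at 1.53 ± 0.44 against 0.15, Cyp7b1, an oxysterol hydroxylase, at 0.67 ± 0.14 against 0.05, and Vrk1, a nuclear kinase, at 3.33 ± 0.55 against 0.55. Ratios to all other kept cells do not tell whether similar cells without Cd209a share these genes. Outside mitochondrial and ribosomal protein genes, the 8 highest levels were those of Gm42418, Actb, Tmsb4x, Cd74, Malat1, S100a6, S100a4 and Cst3, of which Gm42418 overlaps ribosomal RNA.

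**Figure D2:**
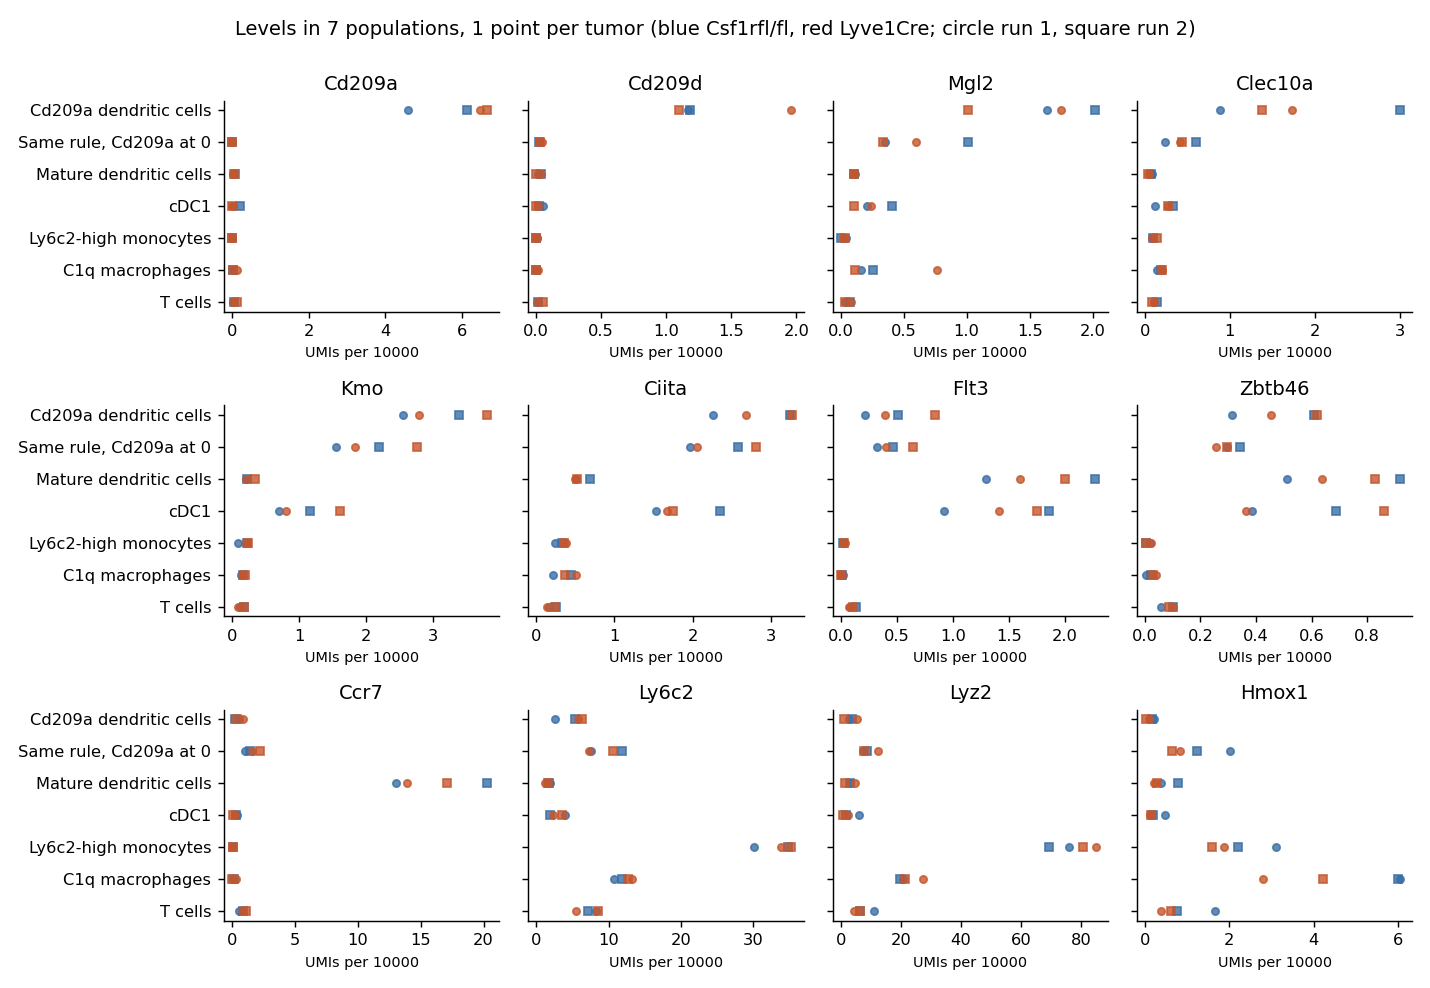
Levels of 12 genes (UMIs per 10000, linear axes) in the members and 6 other populations, with 1 point for each tumor, Csf1rfl/fl in blue and Lyve1CreCsf1rfl/fl (marked Lyve1Cre) in red, circles for run 1 and squares for run 2. Cd209d and Clec10a are higher in the members than in the 6 others plotted in every tumor, Flt3 is higher in mature dendritic cells and cDC1, and Lyz2 is near the low end of its range in the members.

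The label of a dendritic cell was checked against its markers. Of the 8 markers of type 2 or general dendritic cells, all were detected, with Itgax (CD11c) at 1.73, Sirpa at 1.68, Clec10a at 1.75 and Zbtb46, a transcription factor of conventional dendritic cells, at 0.50 UMIs per 10000. Not all of them set the members apart from monocytes and macrophages. Of the 6 compared, 4 were higher and 2 lower than in Ly6c2-high monocytes in all 4 tumors, and 3 were higher and 2 lower than in C1q macrophages. Of all genes compared, 27.2% were higher and 38.5% lower than in monocytes, and 29.3% and 34.8% than in C1q macrophages. The counts of lower markers were thus near the share of all genes. Sirpa was at 3.20 in monocytes and 5.24 in C1q macrophages, Itgam (CD11b) at 3.81 and 4.16 against 1.43 in the members, and Itgax at 0.81 and 1.78. The sum of the 8 was 9.26 in the members, 8.11 in monocytes and 11.5 in C1q macrophages. Zbtb46 was at 0.01 in Ly6c2-high monocytes and 0.02 in C1q macrophages, and Flt3 at 0.03 and 0.01, so both were higher in the members while remaining below the 0.72 and 1.79 of mature dendritic cells. Irf4, a transcription factor of type 2 cells, was at 0.15, and after thinning its share of cells with a UMI (0% to 2.5% in the 4 tumors) was not above that of T cells (3.4% to 6.1%). Tcf4 at 1.62 and Bcl11a at 1.15 were higher than in monocytes, at 0.64 and 0.12. The DNA-binding factor Irf8, which type 1 cells need, was at 1.02 against 15.1 in cDC1.

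Several monocyte genes were present as well. Plac8 was at 26.7 and Ms4a4c at 11.3 UMIs per 10000 in the members, against 9.88 and 3.24 in T cells and 59.9 and 16.1 in Ly6c2-high monocytes. Fcgr1, the high-affinity receptor of IgG, was at 1.90 against 0.91 in T cells and 5.05 in monocytes. After thinning, Plac8 was found in 82.2% to 94.3% of members and 42.3% to 65.7% of T cells. Ly6c2 was found in 36.6% to 45.5% of members and 37.8% to 53.3% of T cells, and Lyz2 in 13.3% to 24.8% and 15.7% to 28.2%, so neither was above its share in T cells. T cells can themselves express Ly6c2, and mature dendritic cells held it in 8.66% to 13.5% and cDC1 in 15.7% to 38.7%, so its background in the members was not settled. Lyz2 was found in 10.2% to 12.0% of mature dendritic cells, under its range in the members, and in 12.5% to 25.8% of cDC1, which overlaps that range. Lyz2 is not read as expression here. The cells behind these shares had a median of 6079 to 6576 UMIs in the members and 3943 to 5739 in T cells before thinning. Scrublet marked 17.6% to 36.2% of T cells over the tumors as doublets and 1.85% to 11.1% of members. The part of doublets in these shares was not tested. The 10 monocyte markers summed to 52.1 UMIs per 10000 in the members, 14.7 in mature dendritic cells, 23.1 in cDC1 and 212 in monocytes, which were themselves set by Ly6c2 and Lyz2. All 10 were lower in the members than in monocytes in each of the 4 tumors, where 38.5% of 2462 genes compared were. Against mature dendritic cells 5 of 6 compared were higher, where 44.6% of 2476 genes were.

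Markers of T cells, mast cells and stroma were near 0, while those of neutrophils and plasmacytoid cells were not. The 7 T-cell markers summed to between 0.09 and 0.20 UMIs per 10000 in the 4 tumors, against 31.8 in T cells, and the 3 of them with no UMI in any member, Cd3d, Cd3e and Cd3g, were set to 0 by the rule. All 4 markers of mast cells or basophils had no UMI, and the 7 tumor or stroma markers summed to 0.22 to 0.42. The 10 macrophage markers summed to 1.18 to 2.37, against 83.1 in C1q macrophages, where C1qa, C1qb and C1qc, which the rule limits in the members, gave 24.8, 24.1 and 16.1. The 6 neutrophil markers summed to between 2.31 and 15.3, and were lowest in the Lyve1CreCsf1rfl/fl tumor of run 2, where S100a9 was at 0.84 against 5.37 to 7.67 in the other tumors. In T cells the same 6 summed to between 6.70 and 26.8. The 6 plasmacytoid markers summed to 7.89 to 10.3, against 111 in plasmacytoid cells and 6.24 in T cells, of which Bst2, an interferon-induced gene, gave 7.72 and Siglech, a defining marker, 0.02. Their part in the comparisons below was not tested.

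Members were set beside the 1327 cells that met the rule but had no Cd209a UMI and fitted no other population, called here the Cd209a-negative cells. Their H2-Ab1 was at 65.7 UMIs per 10000 against 65.9 in the members, and their Flt3 at 0.46 against 0.49. They were lower in Cd209d (0.03), Clec10a (0.42), Mgl2 (0.58), Cdh1 (0.62), Fcor (0.09), Trappc5 (0.48) and Bcl11a (0.54), which after Cd209a were the genes with the largest ratios at the lowest tumor. Kmo, Ffar2, Cyp7b1, Vrk1, Ctnnd2 and Bex6, which led the ratios to all other kept cells, were not among these genes. The Cd209a-negative cells were higher in genes of macrophages, with Hmox1 at 1.18 against 0.13, Maf at 1.02 against 0.12, C3ar1 at 0.77 against 0.12 and Ms4a7 at 0.78 against 0.16. Of the lysosome and cathepsin genes, 18 of 19 compared were lower in the members in all 4 tumors, where 19.7% of all 2251 genes compared were. Of the genes of MHC class I and peptide loading, 15 of 20 were lower, and of the C-type lectins 4 of 10 were higher and 6 lower (median log2 difference -0.44), against 20.8% and 19.7% of all genes compared, but 1 of the 4 is Cd209a, which the rule fixed. The Cd209a-negative cells had a median of 5295 UMIs and the members one of 6350, and a cell with fewer UMIs is less likely to show a UMI of Cd209a. The part of depth in these differences was not tested.

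Cd209d and Clec10a were higher in members with 4 or more Cd209a UMIs than in those with 1 in all 4 tumors, while H2-Ab1 differed little. Cd209d was at 0.59 UMIs per 10000 in members with 1 Cd209a UMI (103 cells), 1.36 in those with 2 to 3 (86 cells) and 1.87 in those with 4 or more (133 cells), as means over the 4 tumors. Clec10a was at 1.12, 1.64 and 2.22, and Mgl2, with no steady order, at 1.21, 0.84 and 2.37. H2-Ab1 was at 66.1, 66.9 and 65.5. Ccr7, the homing receptor of mature dendritic cells, went the other way in these means, at 1.41, 0.26 and 0.04, and was at 1.58 in the Cd209a-negative cells. After thinning, 12 of 320 members held a UMI of Ccr7, so its order rests on few cells. Maf was at 0.12, 0.09 and 0.13, against 1.02 with no Cd209a UMI, so for this gene the step lay between 0 and 1 UMI. The median depth rose over the same steps, from 5863 to 5989 and 6979 UMIs, and the smallest steps held 12 cells of a tumor.

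**Figure D3:**
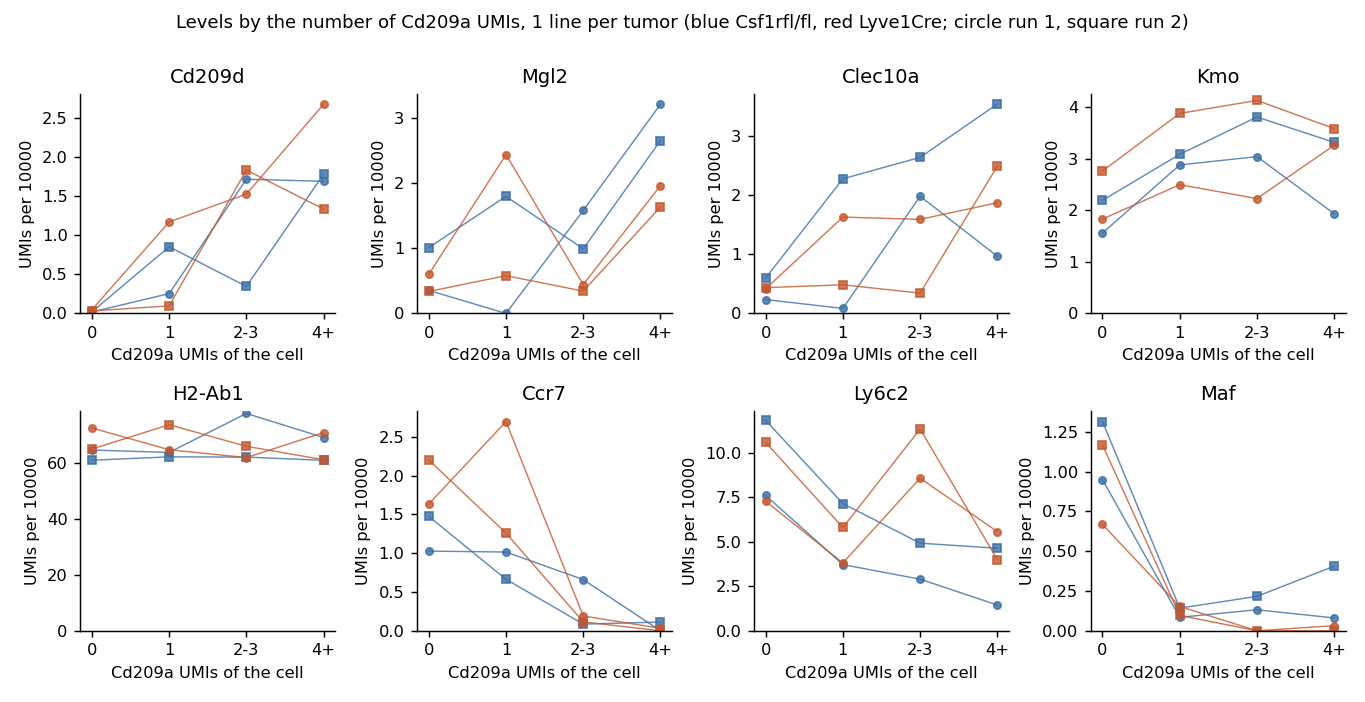
Levels of 8 genes (UMIs per 10000) in the Cd209a-negative cells (0) and in the members by their number of Cd209a UMIs (1, 2 to 3, 4 or more), with 1 line for each tumor, Csf1rfl/fl in blue and Lyve1CreCsf1rfl/fl (marked Lyve1Cre) in red, circles for run 1 and squares for run 2. Maf falls between 0 and 1 UMI in all 4 tumors, H2-Ab1 stays between 60.9 and 77.7, and Cd209d is higher at 4 or more UMIs than at 0 in all 4 tumors.

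Most MHC class II genes stood far above their level in monocytes. Cd74, the invariant chain, was at 122, 125, 132 and 133 UMIs per 10000 in the members and at 23.5 in Ly6c2-high monocytes. Ciita was at 2.86 against 0.33, H2-DMa, a subunit of the peptide exchange factor, at 8.02 against 2.51, and H2-Oa and H2-Ob, the subunits of its inhibitor, at 0.68 against 0.03 and 0.69 against 0.04. Of the 12 genes of the list with a level of 0.5 in either population, 9 were higher in the members in all 4 tumors and 3 (Ctss, Lgmn and March1) were lower, where 27.2% of the 2462 genes compared were higher and 38.5% lower. The rule used H2-Ab1, so nothing is read from this count. Against C1q macrophages 9 of 12 were higher and 2 lower, where 29.3% and 34.8% of 2475 genes were, and 20 of 21 lysosome and cathepsin genes were lower. The kynurenine list had both of its compared genes, Kmo and Gpr35, higher than in monocytes in every tumor, with Kynu at 0.40 against 0.04.

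Of the other functional groups, some were mostly lower than in monocytes and others were divided. Of the chemokine genes compared, 9 of 11 were lower in the members in all 4 tumors and 0 were higher, where 38.5% of all genes were lower and 27.2% higher, and of the matrix and hyaluronan genes 7 of 8 were lower. Of the lysosome and cathepsin genes 16 of 18 were lower, and of the interferon-stimulated genes 22 of 32, although Ifitm1 was at 35.1 against 2.88. The costimulatory and inhibitory ligands were divided, with 4 of 9 higher and 4 lower, as were the transcription factors with 8 and 9 of 20 and the cell cycle genes with 2 and 1 of 5. Il1b was at 12.6, 10.6, 18.5 and 14.3, close to the 14.1 of monocytes, and Il1r2, the decoy receptor of IL-1, was at 3.99 against 1.48. Timp1, an inhibitor of metalloproteinases, was at 0.66 against 0.07. Ccl17, a ligand of CCR4, was carried by 11 members, 1 of which held 111 UMIs. Costimulatory genes were modest, with Cd83 at 1.44, Cd86 at 1.31 and Cd40 at 1.31 against 5.92, 2.69 and 2.23 in mature dendritic cells. Of the costimulatory and inhibitory ligands, 6 of 9 compared were lower than in mature dendritic cells in all 4 tumors and 2 higher, where 32.6% and 44.6% of 2476 genes were.

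The members were also set beside mature dendritic cells and cDC1, where Fscn1, Xcr1 and Clec9a were fixed by the rule. Fscn1, Serpinb6b, Cacnb3, Gm13546, Cd63, Cd200, Tcf7 and Serpinb9 were the most reduced relative to mature dendritic cells, with Cd200 at 0.04 against 5.44 and Ccr7 at 0.51 against 16.1. Xcr1, Clec9a, Txndc16, Gcsam, Gpr141b, Cadm1, Tlr3 and Irf8 were the most reduced relative to cDC1, with Txndc16 at 0.07 against 3.75 and Tlr3 at 0.08 against 1.43. Klrd1, which encodes the CD94 chain, was at 9.60 against 0.50 in cDC1, 0.22 in monocytes and 0.33 in C1q macrophages. S100a4 was at 69.9 against 2.07 in cDC1. Of the cell cycle genes, 11 of 11 compared were lower than in cDC1 in all 4 tumors, where 26.7% of 2234 genes were, and 20 members held 2 or more UMIs of 6 mitotic genes. The cDC1, chosen by raw UMIs of Xcr1 and Clec9a, had medians of 11007 to 15078 UMIs over the tumors. The members had medians of 6079 to 6576, and the part of depth was not tested.

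Among members thinned to 2000 UMIs, the spread between cells was widest for Gm42418, Malat1, Cst3, Ifitm1, Cxcl10, Tmsb4x, Actb, Fabp5, Ifi27l2a and S100a6, ranked by the lowest Fano factor (variance over mean) of the 4 tumors among 2541 genes. Cxcl10, an interferon-induced chemokine, had a Fano factor of at least 6.83, with a UMI in 28.8% of members and up to 38 in 1 cell. Fabp5, a fatty acid binding protein, had one of at least 6.25 and reached 30 UMIs in 1 cell. Ifitm1 was found in 71.2% of the members after thinning and reached 51 UMIs in 1. Cxcl10 was found in 16.8% to 36.4% of members by tumor, and in 18.6% to 22.7% of T cells.

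The comparison of genotypes asks whether the dendritic cells changed when Csf1r was removed from Lyve1-expressing cells. Lyve1 itself had no UMI in any of the 322 members, which allows a share of cells with a UMI of up to 0.932% and does not limit the share that express or have expressed it. It was found in 62 of the 28107 other kept cells, and in 2 of the 955 C1q macrophages. Csf1r was low in the members, at 0.60, 0.90, 0.45 and 0.53 UMIs per 10000, from 19, 80, 30 and 19 UMIs. Both Lyve1CreCsf1rfl/fl tumors were below both Csf1rfl/fl tumors, but the difference of -0.63 on the log2 scale (SE 0.34) did not pass edgeR's quasi-likelihood test (adjusted p = 0.9999). The counts come from the 3′ end of transcripts, which need not include the deleted part, so they do not check the deletion.

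No gene passed edgeR's quasi-likelihood test between genotypes in the fit without a term for the Chromium run. With that term 3 passed, as given below. At an adjusted p below 0.05, 0% of the 5150 genes tested were called, with 28 genes higher and 58 lower in Lyve1CreCsf1rfl/fl tumors at an unadjusted p below 0.05 (1.67%). DESeq2 also called 0, with 9 at an unadjusted p below 0.05. On simulated members with many genes changed at once, the test recovered 35% of well expressed genes changed by 1 and 99% of those changed by 2 on the log2 scale. Changes by 1 were thus mostly missed in this simulation, which ran only the fit without the run term. The simulation held no difference between runs and no case of few changed genes, so recovery there was not tested. The median log2 difference over all genes tested was -0.01.

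In the fit without a run term, the 4 marker genes that are not H2-Ab1 differed by less than their errors or little more. These errors take in the difference between runs. Within each run the levels of Cd209a, Kmo and Flt3 were higher in the Lyve1CreCsf1rfl/fl tumor, and Mgl2 was higher there in run 1 only. None of the 4 passed with the Chromium run as a block. Cd209a was 0.31 higher on the log2 scale in Lyve1CreCsf1rfl/fl tumors (SE 0.27), Kmo 0.15 higher (SE 0.28), Flt3 0.58 higher (SE 0.44) and Mgl2 0.34 lower, at -0.34 (SE 0.33). The rule chose the cells by Cd209a, so its value gives no independent test. Mgl2 turned to 0.0447 without the Lyve1CreCsf1rfl/fl tumor of run 2 and lay at -0.90 without that of run 1. Clec10a moved by 0.99 in run 1 and by -1.11 in run 2. Of the 15 MHC class II genes tested, 10 lay above 0 and 5 below, with a median of 0.07 and 0 called. Of the 32 interferon-stimulated genes, 13 lay above 0 and 19 below with a median of -0.04, of the 22 transcription factors 13 and 9 with a median of 0.07, and of the 20 lysosome genes 6 and 14 with a median of -0.13, again with 0 called in each list. The chemokine list had 4 genes above 0 and 10 below with a median of -0.63, and 0 were called, with 5 of its 14 at an unadjusted p below 0.05, where 1.67% of all genes tested were. The matrix and hyaluronan list had 3 of 8 at that level (median -0.47) and the prostaglandin and lipid mediators 2 of 8 (median -0.11), with 0 called in either.

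Several of the genes of the lowest unadjusted p were carried by few cells. Those toward higher values in Lyve1CreCsf1rfl/fl tumors were Timd4, Sgk1, Smpdl3a, Atf3 and Rabepk, and those toward lower values were Alox5, Ccl2, Ccl7, Slfn4 and Ccl5, all with an adjusted p of 0.9999 in edgeR. In all cells that met the rule without its Cd209a condition, an alternative chosen after the data were seen, Sgk1 at -0.0114, Atf3 at -0.0119 and Ccl5 at 0.42 turned the other way. Ccl2, a chemoattractant of monocytes, had 53, 32, 8 and 0 UMIs, from 3, 9, 6 and 0 cells, and 51 of the 53 were in 1 cell. Alox5, the 5-lipoxygenase of leukotriene synthesis, had 11, 41, 5 and 0 UMIs, from 6, 17, 2 and 0 cells. Timd4, a receptor of phosphatidylserine, had 4, 2, 24 and 13 UMIs, from 1, 2, 8 and 4 cells. Atf3, a stress-induced transcription factor, was at 1.41, 1.65, 2.37 and 3.04 UMIs per 10000 and lay higher in both Lyve1CreCsf1rfl/fl tumors than in both Csf1rfl/fl tumors. With the Chromium run as a replicate block, 3 genes passed in edgeR (0.0583%), which were Ccl2 at -3.94 on the log2 scale (adjusted p = 0.00415), Ifitm1 (adjusted p = 0.0333) and Tmsb4x (adjusted p = 0.0216). Without the block Ifitm1 was 0.45 and Tmsb4x 0.27 higher in Lyve1CreCsf1rfl/fl tumors, and neither passed.

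**Figure D4:**
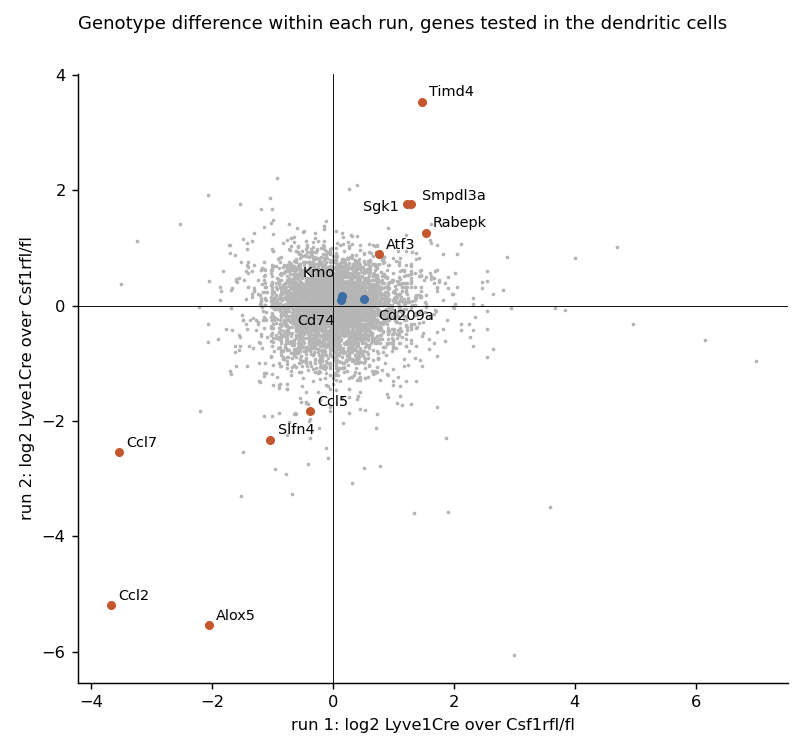
Log2 difference of Lyve1CreCsf1rfl/fl (marked Lyve1Cre) over Csf1rfl/fl in run 2 (y axis) against run 1 (x axis) for the genes tested in the members (grey), with the 10 genes of lowest unadjusted p in red and 3 others in blue. Ccl2 and Alox5 lie far below 0 in both runs on counts from at most 17 cells of a tumor, and Cd209a, Kmo and Cd74 lie near 0.

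MHC class II genes were then compared with the C1q macrophages of the same tumors, since Csf1r is the receptor of a macrophage growth factor and these cells had more of it, at 1.76 UMIs per 10000. Cd74 was at 28.7, 38.5, 62.8 and 57.6 UMIs per 10000 in C1q macrophages, and at 122, 125, 132 and 133 in the members. H2-Aa was at 11.6, 14.3, 25.5 and 23.5 in C1q macrophages and at 54.2, 55.6, 56.8 and 64.3 in the members. H2-Eb1 was at 13.2, 12.6, 27.1 and 21.97 in C1q macrophages and at 59.0, 48.3, 57.2 and 54.8 in the members. The ratio of the Lyve1CreCsf1rfl/fl mean to the Csf1rfl/fl mean in C1q macrophages was 1.79 for Cd74, 1.90 for H2-Aa and 1.90 for H2-Eb1. In the members it was 1.07, 1.10 and 1.04. The genotype effect in C1q macrophages alone did not pass edgeR's test (Cd74 0.85 on the log2 scale, adjusted p = 0.9996). C1q macrophages numbered 473, 268, 148 and 66 cells, or 5.49%, 3.44%, 2.04% and 1.38% of the kept cells. Whether their levels differed within cells or through which cells were present was not tested.

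The genotype effect differed between the members and C1q macrophages in an edgeR fit with the tumor as a term, for 6 of 7141 genes (0.0840%), all lower in the members, and for 23 with the replicate block (0.322%). The effect was lower by 0.74 on the log2 scale for Cd74, at -0.74 (SE 0.11, adjusted p = 0.00736), -0.84 for H2-Eb1 (SE 0.13, adjusted p = 0.00596) and -0.78 for H2-Aa (SE 0.13, adjusted p = 0.0147). H2-Ab1, which differed by -0.95, is part of the rule and gives no independent test. The rule's minimum of H2-Ab1 keeps low cells out of the members, and without that condition (471 cells) the differences were -0.53, -0.58 and -0.54, with adjusted p = 0.174, 0.209 and 0.209. They also did not pass without Scrublet doublets (adjusted p = 0.14, 0.06 and 0.16) or in DESeq2 (0.715, 0.198 and 0.601), and kept their sign in each of these. The other 2 genes were Mmp12, at -2.66, and Saa3, at -5.07, which had 18, 59, 20 and 9 and 5, 9, 1 and 0 UMIs in the members.

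**Figure D5:**
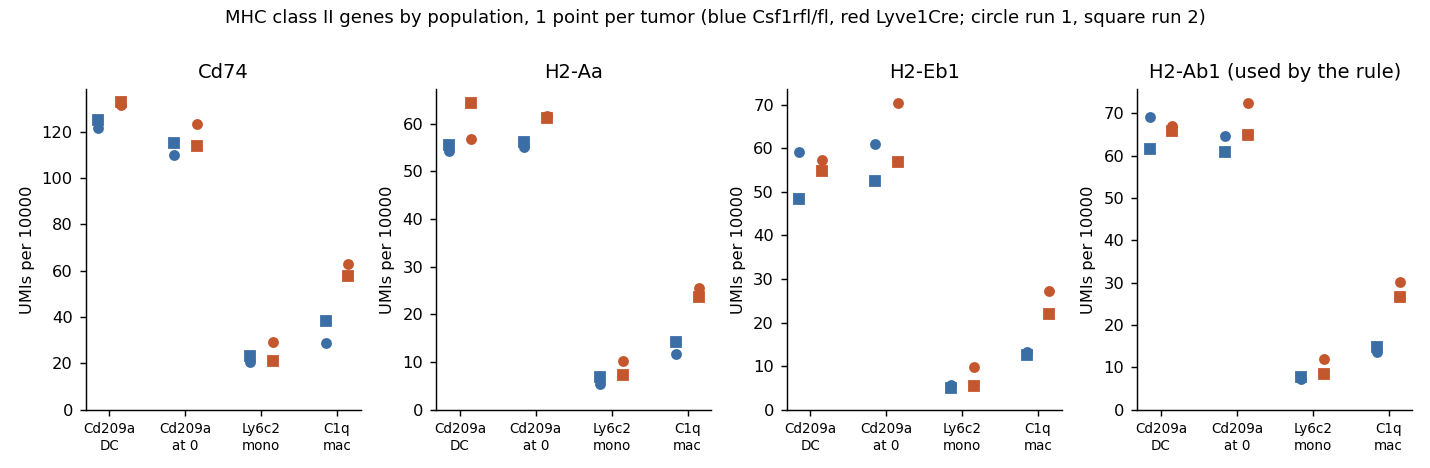
Levels of 4 MHC class II genes (UMIs per 10000) in the members (Cd209a DC), the Cd209a-negative cells, Ly6c2-high monocytes and C1q macrophages, with 1 point for each tumor, Csf1rfl/fl in blue and Lyve1CreCsf1rfl/fl (marked Lyve1Cre) in red, circles for run 1 and squares for run 2. Cd74 lies between 122 and 133 in the members and between 28.7 and 62.8 in C1q macrophages.

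Against Ly6c2-high monocytes the genotype effect differed for 9 of 8829 genes in the same kind of fit (0.102%), 3 higher and 6 lower in the members, and 0 with DESeq2 (49 at an unadjusted p below 0.05) or without Scrublet doublets (295 at an unadjusted p below 0.05). Ccl5, a chemokine of T cells and monocytes, was at 1.13, 3.36, 0.86 and 0.93 UMIs per 10000 in the members and at 4.76, 3.58, 7.10 and 4.63 in monocytes, a difference of -1.91 (SE 0.35, edgeR adjusted p = 0.00934). Its highest value in the members, in the Csf1rfl/fl tumor of run 2, held 67 UMIs of 1 cell among 298. Ccl2 differed by -2.72 (SE 0.51, edgeR adjusted p = 0.00934) on the same few cells as above. Rgs1, a regulator of G protein signaling, was at 2.14, 0.99, 1.91 and 2.51 in the members and at 2.49, 1.28, 1.23 and 1.23 in monocytes, a difference of 1.15 (SE 0.24, edgeR adjusted p = 0.0234). MHC class II genes were not among the 9.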

How the data were processed

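The authors sorted viable CD45+ cells of 4 tumors, prepared Chromium 3′ version 2 libraries in 2 runs, aligned the reads to mm10 with Cell Ranger 6.0.1 per the labels and deposited UMI counts per gene and cell and counts of both hashtags. They also deposited a score per gene and cell, corrected counts from SCTransform of Seurat, for the cells they kept; it served here only as the list of kept cells (28429 of 53361 barcodes, 53.3%). A cell was given to the tumor of the higher hashtag of its run, and 11 cells with tied hashtags, none a member, to no tumor. The authors had left out 4 clusters specific to the Lyve1CreCsf1rfl/fl tumor of run 2. The p-values measure only the spread between these tumors.

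The members, gene lists and tests were chosen with earlier results of these data known. UMIs were summed over members per tumor (library sizes of 305820 to 843980 after the filter) and tested with edgeR 4.0.16 in R 4.3.3 (filterByExpr, TMM, quasi-likelihood test, Benjamini-Hochberg adjustment over all genes tested, threshold 0.05), with DESeq2 1.42.0 as an alternative. Scrublet (scanpy 1.11.5) was given a doublet rate of 0.2. The other populations were set by raw UMIs of their defining genes. Levels were compared with 0.05 UMIs per 10000 added. Scripts ran in Python 3.11.15 with pandas 2.3.3, scipy 1.17.1 and numpy 2.4.6, and plots in matplotlib 3.10.9. The gene test was tested on simulated counts of 4918 genes, with changed genes drawn from those with a log2 CPM above 7, and gave 7 false calls.

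Genes were named if they belong to the rule or the markers, are the 5 of lowest unadjusted p per direction between genotypes (fewer than 5 passed), lead the ratios to other cells (15 against all other cells, 8 each way against single populations), have the 8 highest levels or the 10 highest Fano factors with a mean of at least 0.1 UMIs, or are examples of a list; Plac8, Gpr35, genes that lead the ratios to the Cd209a-negative cells and genes called under a single alternative were named after their values were seen. The run number pairs the tumors, since the labels say that it marks a Chromium run; the run 1 minus run 2 differences of the 2 genotypes correlated with r = 0.529 across 1121 genes, which are not independent. Gene positions come from GENCODE vM21 and promoters from RefSeq. The result of 1 gene that this rule names is not reported here.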

Additional observations from a re-analysis of the deposited data

Results flagged for a closer look

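The genotype effect in the dendritic cells differed from that in another population of the same tumors for 15 results, by the test of the difference itself (edgeR with the tumor as a term). All values are log2 differences of the effect, dendritic cells minus the other population. Against C1q macrophages they were -0.95 for H2-Ab1, which the rule used, -0.84 for H2-Eb1, -0.74 for Cd74, -0.78 for H2-Aa, -2.66 for Mmp12 and -5.07 for Saa3. Since the rule sets a minimum of H2-Ab1 in the members, its value gives no support. Without that condition of the rule edgeR called 0 genes (358 at an unadjusted p below 0.05), and the calls of H2-Eb1, Cd74 and H2-Aa were also lost with DESeq2 and without doublets.

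Against Ly6c2-high monocytes they were 5.93 for Nol4l, -2.72 for Ccl2, -2.02 for Prxl2c, -1.91 for Ccl5, -10.02 for Gzmc, 4.54 for Gm26885, -4.67 for Gzma, -4.76 for Saa3 and 1.15 for Rgs1. Nol4l had 0, 3, 1 and 27 UMIs in the members of the 4 tumors, of which 26 were in 1 cell of the Lyve1CreCsf1rfl/fl tumor of run 2. Gzma had 72 UMIs in the Csf1rfl/fl tumor of run 2, of which 59 were in 1 cell, and Gzmc had 8 UMIs in all members. Prxl2c had 123 UMIs from 30 cells in the Csf1rfl/fl tumor of run 2 and 9, 14 and 12 in the others. Gm26885 had 1, 1, 6 and 17 UMIs and Saa3 5, 9, 1 and 0.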

How the results depend on the processing

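With 45 members in the tumor with the fewest and 2 tumors per genotype, changes of single genes can be missed. The parts of depth and of the number of tumors in this were not tested. Between genotypes 0 genes passed, also with DESeq2, other size factors, without doublets or cycling cells, with a hashtag margin of 3, Cd209a of at least 2, H2-Ab1 of at least 40 per 10000 or thinned cells. The count was 3 with the replicate block, 14 without the filter on low counts, and 4 to 17 without 1 tumor each (4 without the Csf1rfl/fl tumor of run 1, 17 without the Lyve1CreCsf1rfl/fl tumor of run 1). Chosen after the data were seen, all cells that meet the rule without its Cd209a condition gave 0, also with the block, and there Sgk1 turned to -0.0114 (-0.0514 with the block), Atf3 to -0.0119 (-0.0147) and Ccl5 to 0.42 (0.44). Without 1 tumor each, Mgl2 lay between -0.90 and 0.0447, the latter without the Lyve1CreCsf1rfl/fl tumor of run 2. Of 208 values of single genes, 190 kept direction and side, 11 passed and 7 reversed.

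The log2 difference in share was -0.32 to 1.27 without 1 tumor each and -0.00645 without the Cd209a condition, chosen after the data were seen. A replicate block leaves this difference of means as it is, so it gave no separate check. Under the other planned settings the difference lay between 0.45 (H2-Ab1 of at least 40 per 10000) and 0.66. The latter took kept cells outside the T, NK, B and neutrophil rules as denominator. Against monocytes the 9 calls became 0 with DESeq2, 0 without doublets, 20 with the block, 1 to 23 without 1 tumor each (1 without the Csf1rfl/fl tumor of run 2, 19 to 23 without each of the others) and 4 without the H2-Ab1 condition. Against C1q macrophages the 6 became 2 with DESeq2, 2 without doublets, 23 with the block (0.322%), 7 to 38 without 1 tumor each (23 without the Csf1rfl/fl and 38 without the Lyve1CreCsf1rfl/fl tumor of run 1) and 0 without the H2-Ab1 condition, also chosen after the data were seen. The causes were not tested. Of 56 levels of 8 genes under alternatives, 2 moved by more than the SD over tumors.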
